A study of Homo sapiens with 12 samples.

Results

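The comparison described here is Huh7 cells that had been made resistant to lenvatinib against control Huh7 cells, across genes. Huh7 is a human hepatocellular carcinoma line, and lenvatinib is an oral inhibitor of the VEGF, FGF and PDGF receptor tyrosine kinases that is given for liver cancer. Each library was a bulk RNA-seq profile deposited as TPM, a transcript level already divided by transcript length and scaled to the same total in every library. The table held 12 samples of 2 liver cancer lines, and the 4 used here were the resistant libraries A1 and B1 and the control libraries A1 and B1 of Huh7. A gene entered the comparison when it reached 1 TPM in at least 2 of those 4 libraries, which held for 12689 of 20307 genes, and only those 4 libraries set the spread. The labels do not give the dose or the way in which resistance was raised, nor whether lenvatinib was in the medium at harvest, and the control cells carry no treatment by their label. Nothing in them says that A1 and B1 were separate cultures, so the p-values speak only for the scatter among these libraries, and that scatter may be technical. In bulk RNA a change in every cell and a change in the mix of cells cannot be told apart.

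The receptors that lenvatinib blocks signal through adaptor proteins to RAS and the kinases RAF, MEK and ERK, and ERK activity raises the transcription of its own feedback inhibitors, among them the dual-specificity phosphatases and the Sprouty proteins, together with ETS factors of the ETV group. In hepatocytes the FGF receptor FGFR4, with beta-Klotho, receives the intestinal hormone FGF19, which restrains bile acid synthesis. Huh7 cells keep many secretory functions of the hepatocyte, such as albumin and apolipoprotein production, beside fetal liver genes such as AFP.

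The 4 libraries ranked genes much as Huh7 cells do. Each resistant library had a Spearman correlation across genes of 0.876 to 0.905 with the Huh7 controls and of 0.786 to 0.809 with the Hep3B controls of the same table, a description over genes that share depth and composition. Of the marker lists for other cell types, the endothelial list had 1 tested gene and the leukocyte list 4, with LYZ, a lysozyme gene that cancer cells can also express, at 549 and 516 against 67.8 and 68.1 TPM. CD3D, of T cells, was lower as well (3.83 and 5.62 against 1.01 and 0.715 TPM, log2 difference -1.61), CD68, a lysosomal protein of macrophages, was called higher (6.27 and 10.8 against 32.7 and 27.1 TPM, log2 difference 1.73) and CD14 was not called. CD68 lost the call without control A1, at an adjusted p of 0.0528. The fibroblast list had 7 tested genes, of which COL1A1, COL3A1 and LUM were called higher, COL1A1 at 0.404 and 0.97 against 6.23 and 7.87 TPM, COL3A1 at 0.6 and 0.56 against 7.71 and 10.4 TPM and LUM at 1.16 and 0.432 against 6.15 and 7.18 TPM. COL1A1 and COL3A1, under 1 TPM in both controls, could be tested only because the resistant libraries were higher. The defining receptors PDGFRA and PDGFRB were not called, PDGFRB at 3.60 and 5.54 against 3.58 and 4.55 TPM. The part of another cell type in any result below was not tested.

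The resistant libraries differed more from each other than the control libraries did. The median absolute log2 difference between replicates was 0.336 for the resistant pair and 0.115 for the control pair, and the difference went with transcript length. The Spearman correlation of resistant A1 minus resistant B1 with length was -0.605 across 12630 genes, against -0.065 for the control pair. In the shortest quintile of transcripts, with a median length of 1604 bases, the median log2 difference from the control mean was 0.17 in resistant A1 and -0.07 in resistant B1. In the longest quintile, with a median of 7590 bases, it was -0.55 in A1 and 0.04 in B1. Long transcripts were therefore the ones whose resistant values disagreed most, as with APOB, a transcript of 14121 bases at 1478 and 1537 against 342 and 846 TPM, and short ones such as PHGR1, of 571 bases, disagreed the other way. In the shortest quintile 478 genes were called higher and 253 lower, and in the longest 253 higher and 266 lower, of 2526 in each, so the balance of calls moved with length. The part of length in any single result was not tested, and values with a length and GC correction stand in the closing section.

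**Figure D1:**
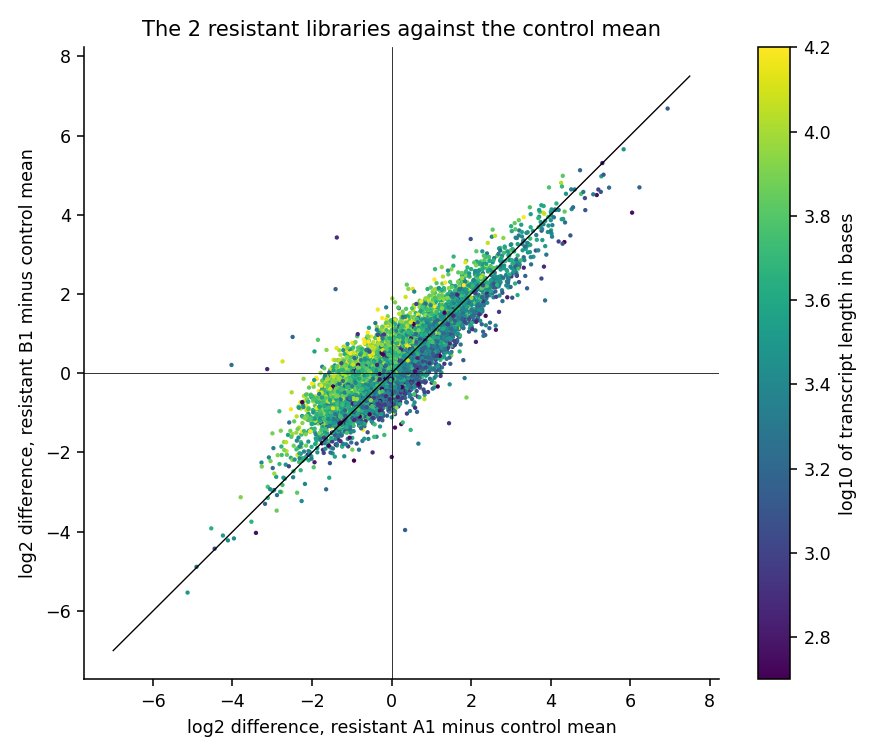
Each point is a gene, placed by its log2 difference from the control mean in resistant A1 (horizontal) and in resistant B1 (vertical) on the log2(TPM + 1) scale, and coloured by log10 of its transcript length in bases; the diagonal marks equal values. Long transcripts lie above the diagonal and short ones below it around 0. Among the largest changes, SLC7A7, NPPB and THBS4 lie near the diagonal. PHGR1 (6.05 in A1, 4.05 in B1) and APOA4 (6.24 in A1, 4.69 in B1) lie well below it.

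The resistant cells differed from the controls over a large part of the transcriptome. With limma, an adjusted p under 0.05 after Benjamini-Hochberg adjustment over all 12689 genes was reached by 3429 genes (27.0%), of which 1923 were higher (15.2% of those tested) and 1506 lower (11.9%). The word call below means this threshold. Counts of list or family members below stand against these shares, and members below the filter are left out of them. A gene under 1 TPM in both libraries of 1 group was tested only because the other group was higher. The filter thus fixed the direction of such a gene. Where a list of at least 5 tested genes is said to have no member called in one direction, no member reached an unadjusted p under 0.05 in that direction either, unless the text gives a number. A log2 difference of at least 1 was passed by 1341 of the genes called higher and by 699 of those called lower. Counting instead the genes with a log2 difference of at least 1, no overlap between the groups and a mean of at least 5 TPM in the higher group gave 1882 (14.8%), of which 1132 were higher and 750 lower. The 2 groups did not overlap in 8845 genes (69.7%), so a lack of overlap with 2 libraries a side carries little weight by itself. The median log2 difference was 1.31 among genes called higher, -0.98 among those called lower and -0.09 over all genes tested. All 3429 called genes had the same sign in both resistant libraries, which the threshold requires with 2 libraries a side and which adds no support. Of them 1545 were past a log2 difference of 1 in both. An exact permutation test of 2 libraries against 2 cannot give a p below 0.3333. Without control A1 the count of calls was 1273 and without control B1 1266, since the spread then comes from the resistant pair alone. It was 6203 without resistant A1 and 7497 without resistant B1, when it comes from the control pair. Higher genes made up 56.1% of the calls with all 4 libraries, 74.9% and 74.6% without control A1 and B1, 51.0% and 40.7% without resistant A1 and B1, and 48.4% with correction for length and GC content, so the excess of rises over falls was not kept in all fits. A call held in all 4 of these fits for 1066 genes, 814 higher and 252 lower.

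**Figure D2:**
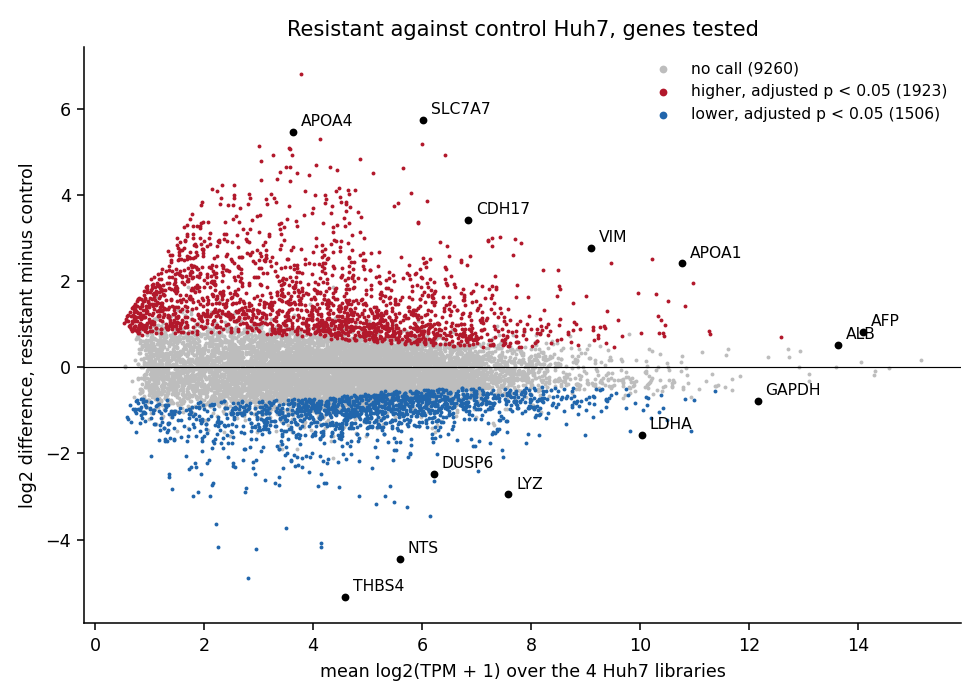
Each point is 1 of the 12689 genes tested, with its mean log2(TPM + 1) over the 4 libraries on the horizontal axis and its log2 difference, resistant minus control, on the vertical axis; red and blue mark genes called higher and lower. The rises reach further than the falls, with SLC7A7 at 5.74 and THBS4 at -5.33 among the labelled genes. Of the abundant labelled genes, ALB lies at 0.51, AFP at 0.82, GAPDH at -0.79 and APOA1 at 2.41.

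The 12 largest rises were of genes at 15.2 TPM or less in both control libraries, and many are familiar from the absorptive epithelium of the gut and kidney. SLC7A7, the light chain of the transporter that exports cationic amino acids from absorptive cells, stood at 8.42 and 7.40 TPM in the control libraries and 508 and 446 TPM in the resistant libraries (log2 difference 5.74, SE 0.16, limma adjusted p 0.000594). CLTRN, a membrane protein that chaperones neutral amino acid transporters to the brush border of the kidney, was at 1.18 and 0.379 against 45.4 and 59.5 TPM (log2 difference 4.93). In both genes both resistant libraries lay far above both controls.

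APOA4, an apolipoprotein that the human intestine secretes with chylomicrons, was at 0.574 and 1.22 TPM in the control libraries and 139.8 and 47.3 TPM in the resistant libraries (log2 difference 5.46, SE 0.52, limma adjusted p 0.00213). PHGR1, a small gene named for being rich in proline, histidine and glycine, was at 0.968 and 1.18 against 136 and 33.3 TPM (log2 difference 5.05, SE 0.62). For both short transcripts resistant A1 was well above resistant B1, so the size of the rise is less certain than its presence. NPPB, the precursor of brain natriuretic peptide, read 109 and 109 TPM in the resistant libraries after 2.19 and 1.45 in the controls (log2 difference 5.30, SE 0.22, limma adjusted p 0.000594).

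Other large rises were HSD3B1, an enzyme of steroid hormone synthesis, at 1.02 and 1.05 against 89.3 and 51.4 TPM, log2 difference 5.08, APOD, a lipocalin that binds small lipids, at 1.14 and 1.34 against 84.97 and 52.5 TPM, log2 difference 4.92, and PI3, the elastase inhibitor elafin, at 5.36 and 3.72 against 195 and 123 TPM, log2 difference 4.83. The glutathione transferases GSTA2 and GSTA1 rose from 8.29 and 11.2 to 427 and 342 TPM and from 13.97 and 15.2 to 572 and 387 TPM, but they are close copies and the counting could split reads between them, so the rise belongs to the pair. None of the 4 libraries of these genes crossed between groups, as for 69.7% of all genes tested.

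Most tested members of the intestinal and brush border list were higher. Of its 34 genes 9 fell below the filter. Of the 25 tested 23 were called higher (against 15.2% of all genes) and none lower. Their median log2 difference was 2.58, against -0.09 over all genes tested. A member under 1 TPM in both controls, such as LCT, could be tested only because the resistant libraries were higher. The list was also chosen with earlier results of these data known, so its share is a description. The counts were 23 without either control library and 24 without either resistant library, with 1 called lower without resistant A1. MUC13, a mucin of the apical surface, was at 5.23 and 5.25 TPM in the control libraries and 99.8 and 102 TPM in the resistant libraries (log2 difference 4.03, SE 0.17, limma adjusted p 0.000594). CDH17, the cadherin of intestinal epithelium, rose from 36.2 and 32.1 TPM to 339.5 and 414 TPM (log2 difference 3.42, SE 0.16, limma adjusted p 0.000654). DPP4, the brush border dipeptidase, was at 62.2 and 56.9 against 434 and 554 TPM, GUCY2C, the guanylin receptor, at 9.77 and 9.86 against 82.2 and 89.3 TPM, and PDZK1, a scaffold for apical transporters, at 49.7 and 44.8 against 283 and 289 TPM, with log2 differences of 3.02, 3.0 and 2.57. Replicates of these 5 genes lay close together in both groups.

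The disaccharidases SI and LCT, which digest sucrose and lactose at the brush border, were at 1.73 and 1.60 against 40.5 and 67.8 TPM and at 0.58 and 0.654 against 12.997 and 19.1 TPM, with log2 differences of 4.33 and 3.37. The microvillus proteins CDHR5, MYO1A and VIL1 had log2 differences of 3.26, 2.06 and 1.13, VIL1 from 192 and 194 to 388 and 463 TPM. The trefoil peptides TFF1, TFF2 and TFF3 had 1.91, 3.26 and 3.08, and each of the 3 was higher in resistant A1 than in B1. CDX2, the homeobox factor of intestinal identity, was at 12.8 and 13.6 TPM in the control libraries and 57.3 and 42.9 TPM in the resistant libraries (log2 difference 1.83, SE 0.21, limma adjusted p 0.00376). Both values of CDX2 in resistant cells lay above both controls, and groups did not overlap in 69.7% of all genes tested. Only FABP1, the liver fatty acid binding protein, at 646 and 725 against 1527 and 901 TPM, and TM4SF5, at 75.6 and 88.1 against 92.01 and 45.3 TPM, were not called among the 25. The genes of this paragraph were picked from the list after their values were seen.

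**Figure D3:**
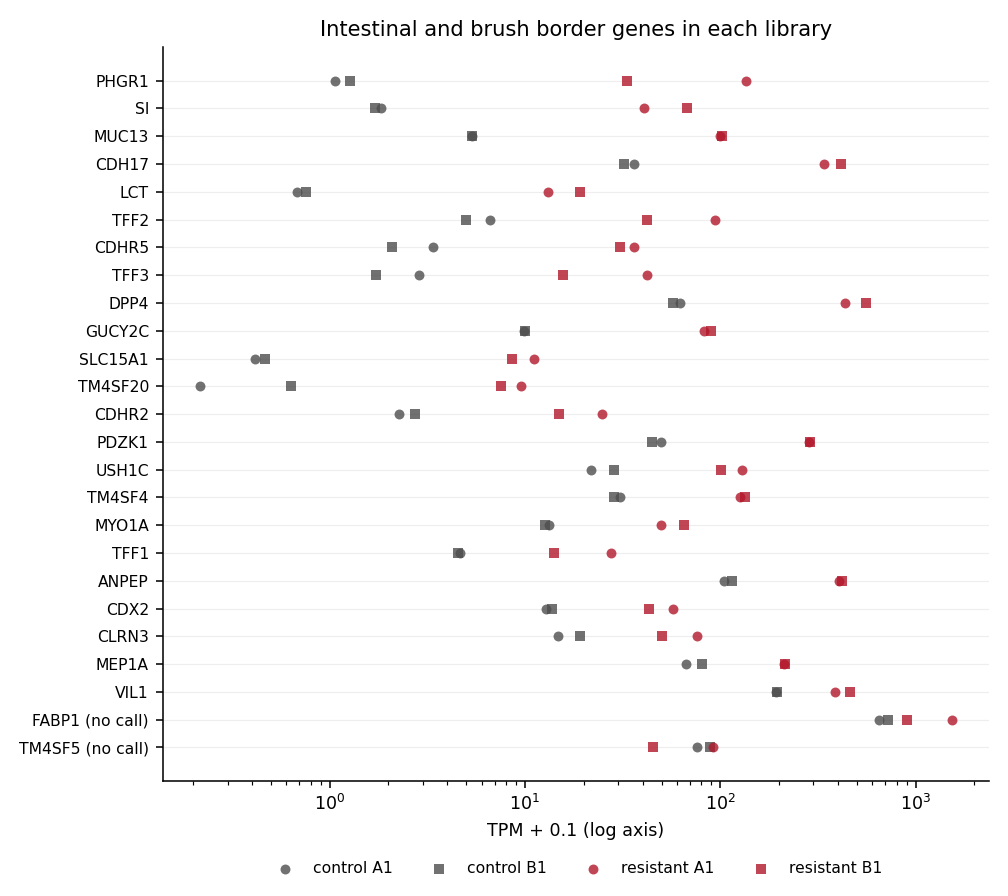
The 25 tested members of the intestinal and brush border list, sorted by log2 difference, with the level in each library as TPM + 0.1 on a log axis; circles are A1, squares B1, grey control and red resistant. In the 23 called genes both red points lie to the right of both grey ones, with A1 and B1 furthest apart in PHGR1 and the trefoil peptides.

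Promoters of these genes were read for the letters bound by the CDX factors of the gut. RefSeq promoter sequence of GRCh38.p14 was searched in the 250 bases before the start of each gene, on both strands, for TTTATGG, a CDX motif. The letters were present in 145 of 10256 promoters of tested genes (1.41%), in 27 of 1484 promoters of genes called higher (1.82%), in 13 of 1222 of those called lower (1.06%), in 3 of 92 of those called higher with a log2 difference of at least 3 (3.26%) and in 3 of 15 promoters of the intestinal list (20.0%). These are counts of letters in a short window, given with no test. A promoter was at hand for 15 of the 25 tested members of the intestinal list, so its share rests on few genes. Whether a CDX factor acts at any of these promoters was not tested. The 3 sequences that follow were chosen, after the values were seen, to show the matches in genes that rose, and capitals mark the matched letters. CLTRN is one of the largest rises, and TM4SF4 and CLRN3 belong to the intestinal list.
CLTRN promoter, GRCh38.p14 chrX:15664806-15665055, minus strand: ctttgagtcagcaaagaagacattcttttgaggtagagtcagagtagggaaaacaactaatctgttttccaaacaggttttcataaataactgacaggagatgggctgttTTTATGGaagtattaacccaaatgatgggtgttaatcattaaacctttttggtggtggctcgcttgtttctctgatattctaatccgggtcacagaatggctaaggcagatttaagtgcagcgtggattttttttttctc
TM4SF4 promoter, GRCh38.p14 chr3:149474447-149474696, plus strand: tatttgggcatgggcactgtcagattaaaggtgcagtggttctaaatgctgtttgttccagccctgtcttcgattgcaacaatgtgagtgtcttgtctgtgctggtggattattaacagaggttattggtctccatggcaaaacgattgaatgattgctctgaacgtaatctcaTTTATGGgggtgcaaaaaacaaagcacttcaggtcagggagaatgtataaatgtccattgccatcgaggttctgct
CLRN3 promoter, GRCh38.p14 chr10:127892942-127893191, minus strand: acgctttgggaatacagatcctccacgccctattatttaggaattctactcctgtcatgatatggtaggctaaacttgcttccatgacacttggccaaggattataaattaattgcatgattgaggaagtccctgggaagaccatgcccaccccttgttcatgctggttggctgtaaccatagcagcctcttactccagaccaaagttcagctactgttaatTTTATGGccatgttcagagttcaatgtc

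TM4SF4, a tetraspanin-like protein of gut and liver, was at 30.5 and 28.5 TPM in the control libraries and 127 and 133 TPM in the resistant libraries (log2 difference 2.10), and CLRN3, a membrane protein of the clarin family, at 14.7 and 19.005 against 75.7 and 50.3 TPM (log2 difference 1.82). SLC26A3, the chloride and bicarbonate exchanger of the colon, was at 1.49 and 3.20 against 48.3 and 37.3 TPM (log2 difference 3.75), and CUBN, the receptor cubilin of gut and kidney, at 0.522 and 0.483 against 20.5 and 23.5 TPM (log2 difference 3.93). All 4 were called higher and none overlapped between the groups, as for 69.7% of all genes tested.

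The lenvatinib target receptors that could be tested were lower or at similar levels, and none was called higher. The target list had 11 genes, of which 5 fell below the filter. No VEGF receptor was among those tested, so nothing is said here about them. Of 6 tested members of the target list, 3 were called lower (against 11.9% of all genes), and the median log2 difference was -0.42. FGFR1 was at 38.2 and 36.97 TPM in the control libraries and 8.94 and 6.45 TPM in the resistant libraries (log2 difference -2.17, SE 0.23, limma adjusted p 0.00281). FGFR2, expressed at a lower level, was at 5.38 and 5.35 against 1.63 and 1.88 TPM (log2 difference -1.21, SE 0.22, limma adjusted p 0.0141). FGFR4, the abundant FGF19 receptor of hepatocytes, was at 307 and 322 against 224 and 225 TPM (log2 difference -0.48, SE 0.13, limma adjusted p 0.0399), a small difference. Its groups did not overlap, as for 69.7% of all genes tested. FGFR3 at 109.9 and 104 against 89.9 and 102 TPM, PDGFRA at 2.29 and 3.13 against 0.953 and 3.22 TPM and PDGFRB were not called. FGFR2 and FGFR4 lost the calls without control A1 (adjusted p 0.0873 and 0.392) and without control B1 (0.0868 and 0.462). Without resistant B1 5 of the 6 were called lower. FGF19 itself was at 33.5 and 35.5 against 36.7 and 34.96 TPM and was not called, and the co-receptor KLB, at 68.6 and 71.5 against 94.4 and 165 TPM, was not called either, with resistant B1 well above A1. NR1H4, the bile acid receptor FXR, fell from 212 and 208 TPM to 69.9 and 62.3 TPM (log2 difference -1.66, SE 0.14, limma adjusted p 0.00168).

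Transcripts that report ERK activity were mostly low in the resistant cells. Of 19 tested MAPK output genes 11 were called lower (57.9%, all genes 11.9%) and 2 higher (10.5%, all genes 15.2%), with a median log2 difference of -1.21. DUSP6, the phosphatase that acts on ERK, was at 165 and 183 TPM in the control libraries and 30.6 and 30.4 TPM in the resistant libraries (log2 difference -2.47, SE 0.15, limma adjusted p 0.000787), and its replicates were nearly equal. The ETS factors ETV4, ETV5 and ETV1 stood at 156 and 155 against 36.5 and 38.6 TPM, at 53.7 and 66.5 against 11.2 and 13.97 TPM and at 22 and 25.2 against 2.96 and 4.89 TPM, with log2 differences of -2.02, -2.17 and -2.35. EGR1, an immediate early factor, was at 15.3 and 18.8 against 1.85 and 2.64 TPM (log2 difference -2.48). The Sprouty genes SPRY1 and SPRY4, inhibitors of receptor signalling, had log2 differences of -2.76 and -2.16, while SPRY2 at 43.9 and 45.7 against 32.1 and 31.3 TPM was not called. The exceptions were PHLDA1, at 7.69 and 5.45 against 26.6 and 40.1 TPM, log2 difference 2.17, and the phosphatase DUSP4, at 9.60 and 9.37 against 19.5 and 25.9 TPM, log2 difference 1.16, both called higher. MYC and CCND1 were not called, at 38.9 and 39.3 against 26.2 and 30.7 TPM and 171 and 159 against 161 and 210.2 TPM. With either control left out 8 members were called lower. The call of DUSP4 went without control A1, at an adjusted p of 0.122, and without control B1, at 0.133.

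**Figure D4:**
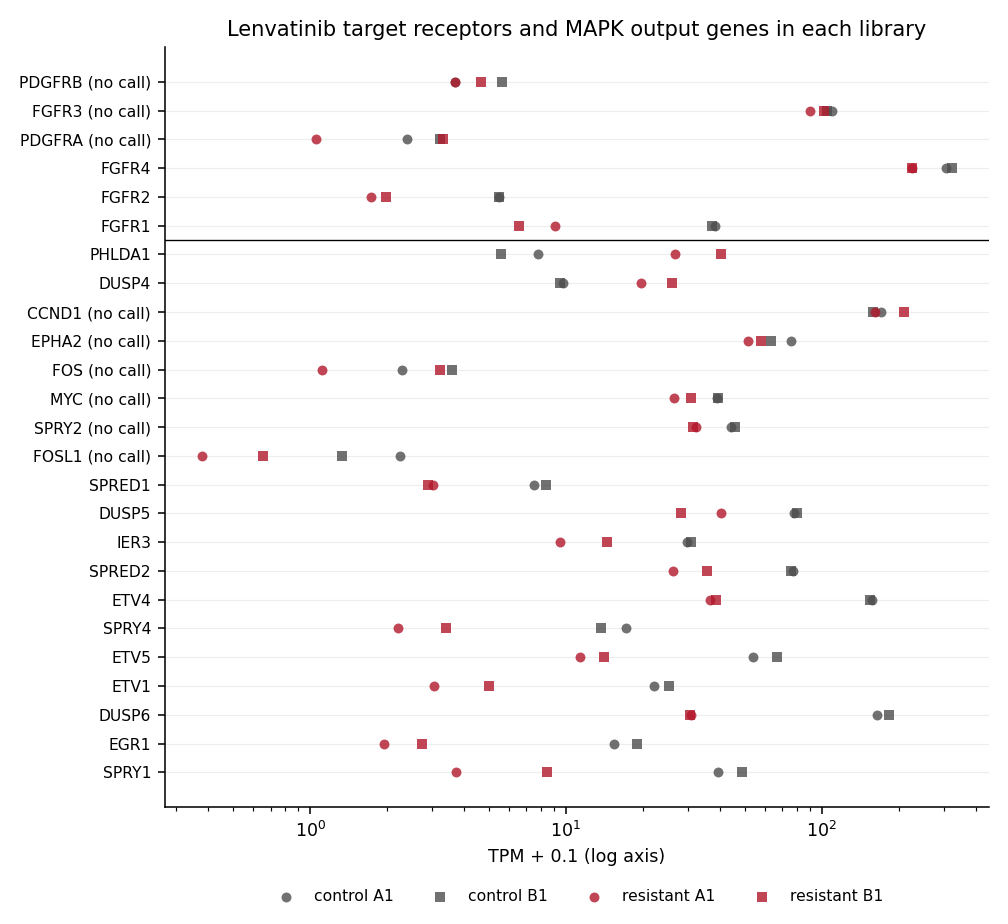
Levels of the 6 tested lenvatinib target receptors (above the line) and the 19 tested MAPK output genes (below it) in each library, as TPM + 0.1 on a log axis, sorted by log2 difference within each list; circles are A1, squares B1, grey control and red resistant. Among called genes, red points lie left of grey ones for FGFR1, FGFR2, FGFR4 and the 11 genes from SPRED1 to SPRY1, and right of them for PHLDA1 and DUSP4. Red points also lie left of grey ones in genes without a call, such as FGFR3, SPRY2 and MYC. Groups did not overlap in 4 of the 6 receptors and 17 of the 19 MAPK output genes.

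Of 19 tested receptor and ligand genes 6 were called higher (31.6%, all genes 15.2%) and 2 lower (10.5%, all genes 11.9%), with a median log2 difference of 0.39. AREG, the ligand amphiregulin, was at 2.73 and 2.60 TPM in the control libraries and 29.2 and 30.98 TPM in the resistant libraries (log2 difference 3.08, SE 0.21, limma adjusted p 0.00104), and NRG1, the ligand of ERBB3 and ERBB4, at 1.24 and 2.13 against 14.7 and 14.2 TPM (log2 difference 2.55, SE 0.26, limma adjusted p 0.00261). HBEGF, another ligand, was at 4.23 and 4.94 against 10.02 and 13.3 TPM, log2 difference 1.17. The collagen receptor DDR1 and the ephrin receptor EPHA1 rose to 14.5 and 10.4 TPM and 4.89 and 4.58 TPM, with log2 differences of 1.46 and 1.69. ERBB2 was at 67.1 and 59.3 against 98.7 and 123 TPM, log2 difference 0.79 and was called, whereas EGFR, at 71.8 and 66.4 against 82.99 and 189.6 TPM, was not, with resistant B1 more than resistant A1 above the controls. EPHB4 was called lower (79.2 and 73.2 against 44.6 and 44.2 TPM, log2 difference -0.76). Leaving out control A1 gave DDR1, ERBB2, HBEGF and EPHB4 an adjusted p of 0.0785, 0.134, 0.19 and 0.268, and leaving out control B1 0.0569, 0.24, 0.117 and 0.185, all above 0.05. The rises then numbered 3, and without resistant A1 they numbered 12.

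Of 29 tested genes of glycolysis and lactate 14 were called lower (48.3%, all genes 11.9%) and 4 higher (13.8%, all genes 15.2%). Their median log2 difference was -0.61. LDHA, the subunit of lactate dehydrogenase that favours lactate, was at 1719 and 1905 TPM in the control libraries and 589 and 624 TPM in the resistant libraries (log2 difference -1.58, SE 0.14, limma adjusted p 0.00182). ENO1, the enolase, fell from 2173 and 2213 TPM to 1048 and 846 TPM (log2 difference -1.22, SE 0.16, limma adjusted p 0.00565), and GAPDH, often used as a reference gene, from 5983 and 6062 to 3906 and 3120.2 (log2 difference -0.79, SE 0.18, limma adjusted p 0.0276). The ubiquitous glucose transporter SLC2A1 and hexokinase HK2 stood at 93.2 and 96.1 against 36.3 and 41.7 TPM and at 44.99 and 45.8 against 15.3 and 19.6 TPM, with log2 differences of -1.26 and -1.34. In each of these 5 genes both resistant values were below both controls, and groups did not overlap in 69.7% of all genes tested. The 4 called higher included SLC2A2, the hepatic glucose transporter, at 1.03 and 0.765 against 24.5 and 25.7 TPM, log2 difference 3.78, HKDC1, a hexokinase domain protein, at 0.423 and 0.982 against 5.60 and 6.76 TPM, log2 difference 2.09, and SLC2A3 at 0.073 and 0 against 3.21 and 2.17 TPM, log2 difference 1.82. HKDC1 and SLC2A3, under 1 TPM in both controls, could be tested only because the resistant libraries were higher. Without control A1 the count called lower was 4 and without control B1 3, LDHA among them in both fits. Without resistant B1 8 members were called higher. GAPDH and HK2 lost the calls without control A1 (adjusted p 0.313 and 0.053) and without control B1 (0.322 and 0.0581). In gluconeogenesis PCK1, PCK2 and FBP1 were called higher of 6 tested, PCK2 at 33.99 and 47.8 against 97.8 and 68.7 TPM. Without control A1 limma called 0 of the 6, against 3 at an unadjusted p under 0.05 with all 4 libraries, and without control B1 it called 2. PCK2 lost the call without control A1, at an adjusted p of 0.229.

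Few mitochondrial genes were called with all 4 libraries, and the counts moved with the resistant library left out. Of 14 fission genes tested 1 was called higher, MIEF2, a receptor for the fission GTPase, at 7.08 and 6.55 against 12.5 and 14.004 TPM, log2 difference 0.86, and of 15 fusion and cristae genes 1 was called lower, APOO, at 16.7 and 21.97 against 10.1 and 8.14 TPM, log2 difference -1.01. FIS1, an outer membrane fission adaptor, was at 88.02 and 95.2 against 108 and 86.4 TPM and not called (log2 difference 0.08, SE 0.17, limma adjusted p 0.754), with overlapping groups. DNM1L, the fission GTPase DRP1, was at 75.3 and 75.9 against 37.2 and 58.3 TPM and missed the threshold (log2 difference -0.69, SE 0.24, limma adjusted p 0.0801). ABHD6, the monoacylglycerol hydrolase studied in this series, was at 5.99 and 5.57 TPM in the control libraries and 8.19 and 8.77 TPM in the resistant libraries, not called (log2 difference 0.48, SE 0.22, limma adjusted p 0.15). Both resistant values of ABHD6 were above both controls, as they were for 69.7% of genes in one direction or the other. Of 35 tested nuclear genes of oxidative phosphorylation none was called in either direction with limma, and their median log2 difference was -0.13. At an unadjusted p under 0.05 1 of them was higher and 4 were lower. These genes followed the library left out, with 19 called lower without resistant A1 and 12 called higher without resistant B1. Of the fusion and cristae genes 8 were called lower without resistant A1, and 7 lower and 1 higher without resistant B1. Of the fission genes 2 were higher and 3 lower without resistant A1, and 2 higher and 4 lower without resistant B1. Among 13 mitochondrially encoded genes 5 were called higher without resistant A1, and 2 higher and 5 lower without resistant B1, and with all 4 libraries MT-ND6 was the one called, at 4608 and 5077 against 7456 and 8385 TPM, log2 difference 0.71; it lies on the opposite strand from its neighbours, and no label or header says whether the counting used strand. Leaving out control A1 gave MIEF2, APOO and MT-ND6 an adjusted p of 0.271, 0.133 and 0.48, and leaving out control B1 0.3329, 0.331 and 0.364, all above 0.05.

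Hepatocyte secretory genes split. Of 40 tested secreted proteins 13 were called higher (32.5%, all genes 15.2%) and 7 lower (17.5%, all genes 11.9%), with a median log2 difference of 0.36. VTN, the adhesive plasma protein vitronectin, was at 516 and 475 TPM in the control libraries and 3254 and 2485 TPM in the resistant libraries (log2 difference 2.52, SE 0.18, limma adjusted p 0.00107). HPX, the heme carrier hemopexin, was at 46.3 and 41.4 against 275 and 225 TPM and ITIH1, an inhibitor heavy chain that binds hyaluronan, at 1.54 and 2.35 against 16.03 and 19.3 TPM, with log2 differences of 2.48 and 2.67. SERPINA7, the thyroxine-binding globulin, was at 1.25 and 1.09 against 11.7 and 12.4 TPM, log2 difference 2.59. The called falls included ITIH2, the partner chain of ITIH1, at 858 and 903 against 273 and 317 TPM, log2 difference -1.58, and the near-identical acute phase genes ORM1 and ORM2, which are uncertain as single genes, at log2 differences of -1.50 and -1.60. ALB, the gene of albumin, was at 10323 and 10971 against 14711 and 15688 TPM and was not called (log2 difference 0.51, SE 0.19, limma adjusted p 0.0914), while AFP rose from 13104 and 13199.6 TPM to 25229 and 21294 TPM (log2 difference 0.82, SE 0.21, limma adjusted p 0.0354). Leaving out either control gave 7 higher and 4 lower, and without resistant A1 12 were called lower. AFP lost the call without control A1 (adjusted p 0.467) and without control B1 (0.455).

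Genes of lipoproteins moved in both directions, also within the same kind of particle. Of 21 tested lipoprotein genes 8 were called higher and 4 lower, with a median log2 difference of 0.41. APOA1, the main protein of high-density lipoprotein, was at 724 and 799 TPM in the control libraries and 5259 and 3111 TPM in the resistant libraries (log2 difference 2.41, SE 0.26, limma adjusted p 0.00322). APOE, the ligand for lipoprotein uptake, was at 991 and 1048 against 4655 and 3342 TPM and APOC3, an inhibitor of triglyceride clearance, at 29.8 and 34.8 against 294 and 182 TPM, with log2 differences of 1.95 and 2.81. The hepatic lipase LIPC had a log2 difference of 2.11. On the other side APOA2 was at 3224 and 3343 against 1541 and 913 TPM, log2 difference -1.47, and APOM at 79.5 and 96.8 against 29.3 and 17.4 TPM, log2 difference -1.91. APOB was called lower as well (log2 difference -1.48, SE 0.40), but its resistant values differed by far more than its control values. APOA1 and APOA2, which travel on the same particle, thus moved in opposite directions. Without resistant B1 13 members were called higher.

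Drug-metabolizing enzymes rose broadly. Of 46 tested members 33 were called higher (71.7%, all genes 15.2%) and 3 lower (6.52%, all genes 11.9%), with a median log2 difference of 1.24. FMO1 and ADH1B, a flavin monooxygenase and an alcohol dehydrogenase, were at 0.1 TPM or less in both controls and at 14.9 and 12.7 TPM and 10.4 and 9.73 TPM in the resistant libraries. Members under 1 TPM in both controls, such as FMO1, ADH1B and CYP3A4, could be tested only because the resistant libraries were higher. EPHX1, the microsomal epoxide hydrolase, was at 49.7 and 48.1 TPM in the control libraries and 276 and 241 TPM in the resistant libraries (log2 difference 2.37, SE 0.14, limma adjusted p 0.000862). SULT2A1, a sulfotransferase of bile acids and steroids, rose from 23.8 and 23.8 to 121 and 104 TPM. CYP3A4, the main drug oxidase of adult liver, stayed low at 0.195 and 0.274 against 1.32 and 1.15 TPM, log2 difference 0.86, whereas the fetal form CYP3A7 was at 1.01 and 0.678 against 9.56 and 19.03 TPM, log2 difference 2.98; the similarity of the CYP3A genes limits both values. NR1I2, the xenobiotic receptor PXR that controls many of these genes, was at 0.707 and 0.762 TPM in the control libraries and 13.1 and 11.5 TPM in the resistant libraries (log2 difference 2.94, SE 0.22, limma adjusted p 0.00128). Without control A1 23 members were called higher, and without control B1 26. None was called lower in either of those fits with limma, where the full set had 3. The call of CYP3A4 went without control A1, at an adjusted p of 0.185, and without control B1, at 0.133. SULT2A1, CYP3A4 and CYP3A7 were named after their values were seen.

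Of 20 tested bile acid and drug transporters 9 were called higher (45.0%, all genes 15.2%) and 3 lower (15.0%, all genes 11.9%). Their median log2 difference was 0.72. ABCB1, the efflux pump P-glycoprotein, was at 28.01 and 24.3 TPM in the control libraries and 137 and 178 TPM in the resistant libraries (log2 difference 2.53, SE 0.19, limma adjusted p 0.00126). ABCC3 and ABCC2, conjugate exporters of the basolateral and canalicular membrane, were at 5.99 and 6.17 against 37.7 and 53.2 TPM and at 63.2 and 59.2 against 158 and 231 TPM, with log2 differences of 2.69 and 1.63. ABCG2, the pump named for breast cancer resistance, was at 9.35 and 8.54 against 23.2 and 20.8 TPM, log2 difference 1.21. The uptake carrier SLCO2B1 rose (35.5 and 28.9 against 101 and 141 TPM, log2 difference 1.86) and SLCO1B3 fell (51.5 and 50.5 against 9.81 and 14.1 TPM, log2 difference -2.02). Groups were apart for all 6, as for 69.7% of all genes tested. The counts were 7 higher and 1 lower without control A1, and 6 higher and 1 lower without control B1. Leaving out control A1 gave ABCG2 an adjusted p of 0.0918, and leaving out control B1 0.129, both above 0.05.

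Among the hepatic transcription factors 5 of 23 were called higher and 1 lower, 26.1% of the list against 27.0% of all genes, with a median log2 difference of 0.09. GATA6, a factor of endoderm, was at 23.7 and 23.4 against 55.2 and 60.3 TPM and CREB3L3, a fasting-induced factor of liver and gut, at 57.2 and 63.3 against 197 and 190.0 TPM, with log2 differences of 1.26 and 1.67. HNF4A, the central hepatocyte factor, was at 129 and 129 against 141 and 186 TPM and was not called. NR1H4 was the 1 called lower. Without resistant A1 12 members were called higher and 4 lower, without resistant B1 6 higher and 5 lower, and without either control library 4 higher and 1 lower.

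Genes of nitrogen metabolism moved in both directions. Of 26 tested genes of the urea cycle and amino acid catabolism 10 were called higher (38.5%, all genes 15.2%) and 5 lower (19.2%, all genes 11.9%). CPS1, which makes carbamoyl phosphate for the urea cycle, was at 3.30 and 3.55 TPM in the control libraries and 56.5 and 55.9 TPM in the resistant libraries (log2 difference 3.69, SE 0.20, limma adjusted p 0.000787), and OTC, the next enzyme, at 0.462 and 1.09 against 7.75 and 7.66 TPM, log2 difference 2.31. ARG1, the hepatic arginase that closes the cycle, went the other way, at 137 and 188 TPM in the control libraries and 16.8 and 15.5 TPM in the resistant libraries (log2 difference -3.24, SE 0.20, limma adjusted p 0.000874), as did HAL, the histidine ammonia-lyase, at 37.998 and 57.02 against 6.39 and 6.52 TPM, log2 difference -2.67. OAT, which makes ornithine and glutamate interconvertible, was at 72.9 and 68.8 against 268 and 259.5 TPM, log2 difference 1.88, and DAO, the D-amino acid oxidase, at 1.45 and 1.26 against 14.6 and 15.95 TPM, log2 difference 2.79. No groups overlapped in these 6 genes, as in 69.7% of all genes tested. The falls numbered 3 without control A1 and 2 without control B1, and without either resistant library 8 were called lower.

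Of 27 tested amino acid transporters 9 were called higher (33.3%, all genes 15.2%) and 5 lower (18.5%, all genes 11.9%), with a median log2 difference of 0.16. Beside SLC7A7, SLC3A1, the heavy chain of the cystine transporter of gut and kidney, was at 0.963 and 0.701 against 28.4 and 25.6 TPM, log2 difference 3.93, and the glutamate transporters SLC1A1 and SLC1A3 at 2.59 and 3.64 against 54.6 and 76.1 TPM and at 8.36 and 6.12 against 91.3 and 104 TPM. SLC3A2, the heavy chain that pairs with SLC7A7, was at 111 and 100.2 against 330.1 and 232 TPM, log2 difference 1.38. SLC6A14, a concentrative transporter of neutral and cationic amino acids, was almost lost, at 32.3 and 32.5 TPM in the control libraries and 0.443 and 1.22 TPM in the resistant libraries (log2 difference -4.22, SE 0.28, limma adjusted p 0.001). SLC7A11, the cystine importer, was at 20.5 and 25.2 against 4.29 and 9.81 TPM, log2 difference -1.65 and SLC7A2, a cationic amino acid importer, at 102 and 117 against 17.9 and 39.4 TPM, log2 difference -2.0. Without control B1 the falls numbered 3, and without resistant A1 and resistant B1 they numbered 8 and 9. SLC7A11 lost the call without control B1, at an adjusted p of 0.0761.

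Genes of fatty acid breakdown rose in part, with 11 of 26 called higher and none lower at a median log2 difference of 0.68. The thiolases ACAA1 and ACAA2 were at 91.3 and 81.6 against 374 and 247 TPM and at 95.002 and 94.9 against 294 and 243 TPM. Of 22 tested genes of fatty acid synthesis and storage 6 were called higher and 5 lower. The rises included the triglyceride synthases DGAT1 and DGAT2, with log2 differences of 1.52 and 1.56, and the falls FASN, the fatty acid synthase, at 314 and 349.7 against 177 and 217 TPM, log2 difference -0.75. Without either control library none of the synthesis and storage genes was called lower with limma, against 5 in the full set, 8 without resistant A1 and 13 without resistant B1. The call of FASN went without control A1, at an adjusted p of 0.141, and without control B1, at 0.242. Without control A1 7 breakdown genes were called higher and without control B1 8, and in both fits 3 synthesis and storage genes were called higher.

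Epithelial junction genes and mesenchymal genes rose side by side. Of 31 tested epithelial adhesion genes 18 were called higher and 2 lower, with a median log2 difference of 1.09. EPCAM, an adhesion molecule of epithelia and liver progenitors, was at 28.8 and 28.01 TPM in the control libraries and 257 and 185 TPM in the resistant libraries (log2 difference 2.90, SE 0.20, limma adjusted p 0.00103). JUP, plakoglobin of junctions, was at 61.6 and 67.5 against 258 and 240.5 TPM, log2 difference 1.93, CLDN6, a fetal claudin, at 39.2 and 36.98 against 135 and 109.7 TPM, log2 difference 1.65, and CDH1, E-cadherin, at 38.4 and 42.2 against 103 and 157 TPM, log2 difference 1.64. KRT19, the keratin of bile duct cells, rose from 65.9 and 42.9 to 482 and 347 TPM (log2 difference 2.92, SE 0.26, limma adjusted p 0.00186). Without control B1 12 were called higher, with KRT19 and EPCAM still among them.

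Of 41 tested mesenchymal and matrix genes 25 were called higher (61.0%, all genes 15.2%) and 4 lower (9.76%, all genes 11.9%). Their median log2 difference was 1.22. VIM, the intermediate filament vimentin, was at 227 and 193 TPM in the control libraries and 1497 and 1382 TPM in the resistant libraries (log2 difference 2.78, SE 0.15, limma adjusted p 0.000787). SPARC, a matrix glycoprotein, was at 14.5 and 11.1 against 219 and 229 TPM (log2 difference 4.04, SE 0.18, limma adjusted p 0.000605), and TAGLN, a smooth muscle actin-binding protein, at 6.65 and 3.42 against 67.3 and 69.1 TPM, log2 difference 3.57. CDH2, N-cadherin, rose together with CDH1, from 44.5 and 42.5 to 151 and 246 TPM (log2 difference 2.12). ZEB1, a repressor of epithelial genes, was called lower (14.4 and 15.5 against 3.20 and 8.03 TPM, log2 difference -1.37), and so was ITGA2, a collagen-binding integrin (17.8 and 16.5 against 0.889 and 2.54 TPM, log2 difference -2.81). THBS4, a matricellular thrombospondin, had the largest fall of all called genes, at 144 and 160.0 TPM in the control libraries and 3.37 and 2.29 TPM in the resistant libraries (log2 difference -5.33, SE 0.22, limma adjusted p 0.000594). COL1A1 and COL3A1, given above with the fibroblast markers, were called higher too. The falls numbered 2 without either control library and 7 without either resistant library. Leaving out control A1 gave ZEB1 an adjusted p of 0.1, and leaving out control B1 0.131, both above 0.05.

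Targets of the YAP and TEAD factors, which respond to cell shape and contact, were called higher in 10 of 17 and lower in 1, with a median log2 difference of 0.99. ANKRD1, a nuclear ankyrin-repeat protein, was at 12.3 and 6.73 TPM in the control libraries and 246 and 251 TPM in the resistant libraries (log2 difference 4.62, SE 0.27, limma adjusted p 0.000787). CCN1, a secreted matricellular protein, was at 20.8 and 16.5 against 80.7 and 98.9 TPM, log2 difference 2.21, F3, tissue factor, at 7.66 and 6.41 against 42.2 and 48.6 TPM, log2 difference 2.53, and AMOTL2, an angiomotin of junctions, at 31.2 and 25.96 against 101 and 113 TPM, log2 difference 1.87. NT5E, the ecto-nucleotidase CD73, went down (62.4 and 69.2 against 16.6 and 18.3 TPM, log2 difference -1.86). YAP1 was not called and its resistant values were far apart, at 94.8 and 99.2 against 41.9 and 92.4 TPM. The count called higher was 6 without either control library.

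Proliferation genes were mostly lower. Of 26 tested genes of G2 and mitosis 23 were called lower (against 11.9% of all genes) and none higher, with log2 differences from -1.75 to -0.18 and a median of -0.90. Of 29 tested genes of replication 22 were called lower and none higher, with log2 differences from -1.71 to 0.076 and a median of -0.95. CCNA2, the cyclin of S phase and G2, was at 132 and 129 TPM in the control libraries and 56.3 and 64.99 TPM in the resistant libraries (log2 difference -1.10, SE 0.15, limma adjusted p 0.00609), and PLK1, a mitotic kinase, at 124 and 123 against 62.9 and 67.4 TPM (log2 difference -0.92). MCM7 and MCM3, subunits of the replicative helicase, were at 565 and 543 against 291 and 258 TPM and 311 and 288 against 155 and 153 TPM, with log2 differences of -1.01 and -0.95. CDKN1A, the inhibitor p21, rose from 3.92 and 3.81 TPM to 23.2 and 17.2 TPM (log2 difference 2.11, SE 0.24, limma adjusted p 0.00376), and CDKN2A and CDKN1B were called lower, at 73.3 and 72.4 against 46.4 and 47.3 TPM, log2 difference -0.63 and 80.02 and 79.8 against 51.2 and 58.7 TPM, log2 difference -0.54. These counts rest on the spread between the control libraries. Without control A1 they were 5 of 26 and 1 of 29, and without control B1 4 and 2. With the spread taken from all 12 libraries of the series 10 G2 and mitosis genes were called lower. CCNA2, PLK1, MCM7, MCM3, CDKN2A and CDKN1B lost the calls without control A1 (adjusted p 0.062, 0.119, 0.0746, 0.103, 0.346 and 0.419) and without control B1 (0.0515, 0.114, 0.0569, 0.0635, 0.323 and 0.408).

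Of 22 tested ER chaperone genes 9 were called lower and 1 higher, with a median log2 difference of -0.51, and of 14 heat shock genes 8 were lower and none higher, with a median of -0.57. PDIA4, a disulfide isomerase, was at 401 and 396 against 189.9 and 179.8 TPM, log2 difference -1.11, HSP90B1, the ER chaperone GRP94, at 1182 and 1203 against 645 and 596 TPM, log2 difference -0.94, and HSPD1, the mitochondrial chaperonin, at 872 and 804 against 388 and 365 TPM, log2 difference -1.15. HSPB1, a small heat shock protein, was at 262 and 302 against 109 and 97.2 TPM, log2 difference -1.44. HERPUD1, a protein of ER-associated degradation, was the 1 called higher (40.6 and 48.1 against 79.4 and 79.8 TPM, log2 difference 0.83). Without either control library 1 ER gene and 2 heat shock genes were called lower. The calls of HSP90B1 and HERPUD1 went without control A1, at an adjusted p of 0.1 and 0.246, and without control B1, at 0.112 and 0.11. Of 77 cytosolic ribosomal protein genes 2 were called lower, RPL4 at 3162 and 3310.0 against 2331 and 2086 TPM, log2 difference -0.55 and RPS26 at 1052 and 994 against 754 and 699.7 TPM, log2 difference -0.49, named after their values were seen, and none higher, with a median log2 difference of -0.36. Leaving out control A1 gave RPL4 and RPS26 an adjusted p of 0.434 and 0.494, and leaving out control B1 0.488 and 0.4, all above 0.05. Without resistant A1 74 were called lower, and without resistant B1 19 lower and 7 higher. They were lower in resistant B1 than in A1, where they took 6.06% and 8.83% of all TPM, against 9.52% and 9.41% in the controls.

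Genes known to answer to NRF2, the antioxidant factor, did not move as one. Of 30 tested 7 were called higher (23.3%, all genes 15.2%) and 7 lower (23.3%, all genes 11.9%), with a median log2 difference of -0.17. HMOX1, the heme oxygenase, was at 30.5 and 29.9 against 126 and 106 TPM, log2 difference 1.90, GPX2, the glutathione peroxidase of the gut, at 23.3 and 16.3 against 87.5 and 82.3 TPM, log2 difference 2.07, and AKR1B10, an aldo-keto reductase, at 0 and 0 against 7.81 and 6.35 TPM, log2 difference 3.01. NQO1, a quinone reductase much used as an NRF2 readout, fell from 305 and 252 to 98.7 and 67.5 TPM (log2 difference -1.75, SE 0.22, limma adjusted p 0.00471). The ferroptosis list had 16 tested genes, with 3 called higher (18.8%, all genes 15.2%) and 6 lower (37.5%, all genes 11.9%). Its median log2 difference was -0.095. Among genes of ferroptosis ACSL4, which loads membranes with polyunsaturated fatty acids, was at 289 and 314 TPM in the control libraries and 43.6 and 71.4 TPM in the resistant libraries (log2 difference -2.41, SE 0.25, limma adjusted p 0.00261), and GPX4, the peroxidase that repairs lipid peroxides, at 403 and 409.8 against 871 and 689 TPM, log2 difference 0.93. CP, the copper ferroxidase ceruloplasmin, was at 121 and 141 against 14.2 and 13.9 TPM, log2 difference -3.13, and TFRC, the transferrin receptor, at 396 and 399 against 178 and 239 TPM, log2 difference -0.94. Without either control library 2 of the 7 NRF2 falls were called, and without either resistant library 13 falls were called. GPX4 and TFRC lost the calls without control A1 (adjusted p 0.116 and 0.0926) and without control B1 (0.106 and 0.0978).

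Antigen presentation and interferon genes were mostly higher at modest levels. Of 12 tested genes of MHC class I presentation 9 were called higher (75.0%, all genes 15.2%) and none lower, with a median log2 difference of 1.23. Of 20 interferon genes 11 were higher (55.0%) and 1 lower, with a median of 0.84. B2M, the invariant chain of class I molecules, was at 471 and 454 against 981 and 823 TPM, log2 difference 0.96. MX1 and OAS1, antiviral effectors, were at 2.58 and 2.06 against 18.4 and 15.2 TPM and 1.62 and 2.19 against 20.6 and 13.4 TPM, with log2 differences of 2.42 and 2.61, while MX2 was lower at 90.2 and 94.2 against 46.3 and 47.96 TPM, log2 difference -0.95. The NF-kB list had 16 tested genes, with 5 called higher and 4 lower (against 15.2% and 11.9% of all genes). Its median log2 difference was 0.251. The rises included CXCL8 (3.68 and 1.52 against 22.4 and 20.8 TPM, log2 difference 2.72). The falls included CCL20, at 236 and 234 against 70.5 and 60.9 TPM, log2 difference -1.83. They also included ICAM1, at 172 and 184 against 51.97 and 57.9 TPM, log2 difference -1.68. Without either control library 2 NF-kB genes were called higher. The falls of this list numbered 3 without control A1 and 2 without control B1. Without control A1 and control B1 respectively, 5 and 5 presentation genes and 5 and 6 interferon genes were called higher. The calls of B2M and MX2 went without control A1, at an adjusted p of 0.0907 and 0.1, and without control B1, at 0.113 and 0.129.

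Of 27 tested lysosomal genes 12 were called higher (44.4%, all genes 15.2%) and none lower, at a median log2 difference of 0.46. NPC2, the cholesterol-binding protein of the lysosome, was at 74.1 and 91.05 TPM in the control libraries and 712 and 528 TPM in the resistant libraries (log2 difference 2.89, SE 0.20, limma adjusted p 0.00104), and CTSA, a protective lysosomal carboxypeptidase, at 208 and 194 against 675 and 593 TPM, log2 difference 1.65. Without control A1 4 members were called, without control B1 2, NPC2 and CTSA among them, and without resistant A1 18.

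Of 26 tested regulators of cell death 3 were called higher and 4 lower, 26.9% of the list against 27.0% of all genes, at a median log2 difference of -0.08. BOK, a BAX relative, was at 8.73 and 10.7 against 33.5 and 28.9 TPM, log2 difference 1.59, BCL2L1, whose long form protects from death, at 214 and 192 against 385 and 365 TPM, log2 difference 0.89, and PMAIP1, the BH3-only protein NOXA, at 6.44 and 7.96 against 1.37 and 1.58 TPM, log2 difference -1.72. Without either control library 1 gene was called in each direction, without resistant A1 6 were called higher, and without resistant B1 5 were higher and 9 lower. Leaving out control A1 gave BCL2L1 an adjusted p of 0.0786, and leaving out control B1 0.147, both above 0.05.

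Several of the largest falls were of secreted and developmental genes. NTS, the neuropeptide neurotensin, was at 247 and 201 TPM in the control libraries and 9.25 and 9.41 TPM in the resistant libraries (log2 difference -4.44, SE 0.17, limma adjusted p 0.000594). NPTX2, a neuronal pentraxin, fell to under 0.5 TPM in both resistant libraries from 17.4 and 21.5 TPM in the controls. FST, the activin antagonist follistatin, was at 80.3 and 63.3 against 3.63 and 3.02 TPM, log2 difference -4.07. The groups were far apart in each of these 3.

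HMGA2, an architectural chromatin protein of fetal tissues and tumours, fell from 236 and 235 TPM to 16.04 and 26.01 TPM (log2 difference -3.46, SE 0.24, limma adjusted p 0.00104). DLK1, a Notch ligand-like protein of fetal liver, was at 12.1 and 19.3 against 0.419 and 0.215 TPM, log2 difference -3.64, S100A9, a calgranulin, at 39.5 and 41.1 against 2.89 and 1.53 TPM, log2 difference -3.72, and PLXND1, a semaphorin receptor, at 112 and 101 against 13.6 and 8.75 TPM, log2 difference -3.18. Fetal liver genes as a list were divided: of 17 tested oncofetal and progenitor genes 6 were called higher, among them GPC3 (1025 and 1045 against 1979 and 1641 TPM, log2 difference 0.80) and SPINK1 (209 and 172 against 859 and 581 TPM, log2 difference 1.89), and 5 lower, among them SPP1, osteopontin (23.97 and 24.5 against 2.18 and 3.80 TPM, log2 difference -2.69) and LGR5 (13.99 and 10.5 against 0.926 and 2.64 TPM, log2 difference -2.31). Without resistant B1 10 were called lower, and 4 were called higher without either control library. GPC3 lost the call without control A1 (adjusted p 0.231) and without control B1 (0.208).

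**Figure D5:**
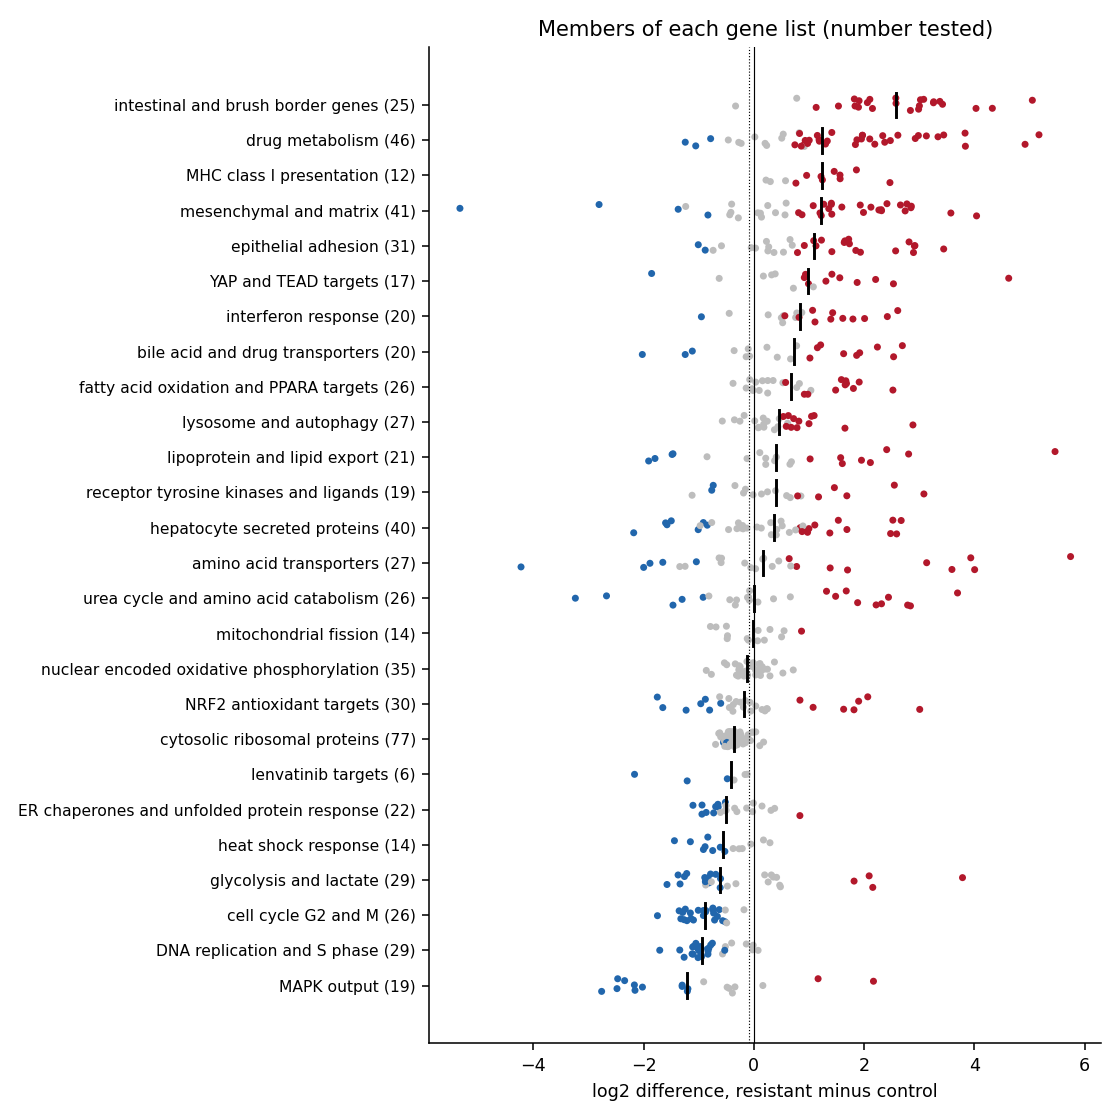
Log2 differences, resistant minus control, of the tested members of 26 gene lists, sorted by list median (black bar); each point is a gene, red called higher, blue called lower, grey not called, and the dotted line marks the median of all genes tested at -0.09. Intestinal genes lie furthest to the right and MAPK output genes furthest to the left, and several lists hold both red and blue points.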

How the data were processed

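The values are bulk RNA-seq levels in TPM, transcript abundance scaled to a fixed total per library, deposited by the authors as 1 table with 12 columns, each mapped to a sample by its name. The submitters' processing notes name fastp 0.18.0 as a tool and hg38 as the build. Which aligner, quantifier and annotation were used, and whether strand was, is not given in the sources used here. TPM keeps no depth, so the depth of each library is unknown and no counting interval is given.

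Of 20307 gene identifiers, 19702 were matched to a symbol and 20092 to GENCODE 29 on hg38, and 26 shared a symbol with a more abundant identifier. Genes with at least 1 TPM in at least 2 of the 4 Huh7 libraries were tested. Values were taken as log2(TPM + 1), which understates the change of low genes, and compared with limma 3.58.1 in R 4.3.3, with an intensity trend, no block and Benjamini-Hochberg adjustment. A log2 difference and its SE are on that scale, resistant minus control. The procedure was tested on simulated data with known changes. That simulation gave both groups the same spread and no effect of transcript length. It therefore does not speak to the wider spread of the resistant pair. Promoter windows came from RefSeq. Transcript length and GC content came from GENCODE 29 for 12630 of the tested genes.

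The genes and gene lists were chosen with earlier results of these data known. Named genes are the 12 largest rises and falls with at least 5 TPM in the higher group, the 5 called genes with the largest rise and the 5 with the largest fall in TPM, up to 5 members of each list with enough calls by adjusted p, the near-0 genes, and genes of the leading families and chromosome windows, 263 in all, of which a part is reported here, since some items are not reported. List members named beyond that rule were picked after their values were seen. Alternatives covered the pseudocount, the filter, scaling, moderation, libraries left out, the replicate letter, and transcript length with GC content. Library weights and list counts by setting were added after seeing the data.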

Additional observations from a re-analysis of the deposited data

How the results depend on the processing

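The main comparison called 3429 genes. Scaling, pseudocount, filter and moderation gave 2875 to 3823 calls, with 49.3% to 61.7% of them higher against 56.1%, and the fit on all 12 libraries gave 2665. The replicate block gave 4177 calls, of which 3308 were shared with the main ones in the same direction. Deviations of libraries with the same letter correlated at 0.0443, so the letters were not taken to pair the samples. Length and GC correction gave 4742 calls (3166 shared), 2293 higher and 2449 lower, and with the replicate block 5232, of which 47.7% were higher; the excess of rises thus turned into an excess of falls. An adjusted p under 0.01 left 1108 genes, and a log2 difference of at least 1 left 2040. Library weights, added after seeing the data, gave 3362. Leaving out 1 library gave 1266 to 7497 calls, and no call changed direction in any of these fits. The count of 1882 genes by size and lack of overlap became 1225 with a pseudocount of 5, since a larger pseudocount shrinks the differences of low genes, and 1757 to 2654 with 1 library left out. Of 195 named genes with a call, 155 kept it without each of the 4 libraries. Among the genes named without a call, the sign turned for FIS1 and FGF19 with length and GC correction, with or without the replicate block (-0.12 and -0.20). With 1 library left out, the log2 difference ran from -0.083 to 0.24 for FIS1, from -0.027 to 0.35 for CCND1, from -0.92 to 0.20 for PDGFRA, from -0.38 to 0.13 for PDGFRB and from -0.84 to 0.17 for TM4SF5. With 2 libraries a group, a spread of 0.336 in the resistant pair and no depth in TPM, small differences and low genes are the least certain.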

Other observations

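Several gene families not described above moved with most of their members. Over all genes tested 15.2% were called higher and 11.9% lower. The annexins, which bind membrane phospholipid when calcium is present, had 9 of 13 tested genes called higher. ANXA1 was at 6.93 and 2.47 TPM in the control libraries and 95.6 and 90.2 TPM in the resistant libraries (log2 difference 4.16, SE 0.39, limma adjusted p 0.00213), ANXA3 at 23.3 and 12.3 against 261 and 258 TPM, log2 difference 3.86, and ANXA4 at 137 and 134 against 650.2 and 653 TPM, log2 difference 2.26. Without control A1 6 annexins were called higher and without control B1 5. ANXA1 and CAPN2 lie outside the rule for named genes and were picked after their values were seen. The calpains, proteases that also depend on calcium, had 6 of 9 called higher, CAPN2 at 6.81 and 5.18 against 55.5 and 82.4 TPM, log2 difference 3.31, and 3 without either control library. The HOXC cluster of homeobox genes had 6 of 8 called higher, with HOXC6 at 5.03 and 5.24 against 22.4 and 21.4 TPM, log2 difference 1.90 and HOXC10 at 26.2 and 29.5 against 58.4 and 57.5 TPM, log2 difference 1.03, and 2 without either control library. The family of symbols that open with CCT, among them subunits of the chaperonin that folds actin and tubulin, had 8 tested genes. In 1 of them the level was higher (log2 difference 0.54, unadjusted limma p under 0.05) without a call. The other 7 were called lower within a narrow range, from CCT8 at -0.92 on the log2 scale to CCT6A at -0.67. None was called with limma without control A1 or without control B1, where the full set has 7 at an unadjusted p under 0.05. The call of HOXC10 went without control A1, at an adjusted p of 0.129, and without control B1, at 0.0717.

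More genes were near 0 in the controls alone than in the resistant libraries alone. Both control libraries were under 0.5 TPM and both resistant libraries at 5 TPM or more in 42 of 12689 genes. In the other direction there were 5, among them NPTX2, DLK1, CD38 and KLHL14. The controls listed 14893 and 14951 genes above 0 TPM, against 15453 and 15474 in the resistant libraries. TPM carries no detection limit, so a value near 0 does not show that a gene was off. The 42 included C6, a component of the membrane attack complex, at 0.038 and 0.07 against 17.5 and 17.3 TPM, log2 difference 4.12, EPSTI1, an interferon-inducible gene, at 0.181 and 0.165 against 19.8 and 21.9 TPM, log2 difference 4.22, UNC5B, a netrin receptor, at 0.271 and 0.458 against 26.8 and 22.02 TPM, log2 difference 4.22, HAO2, a peroxisomal hydroxy acid oxidase, at 0.204 and 0.077 against 22.4 and 14.9 TPM, log2 difference 4.08, and WNT11, a secreted Wnt ligand, at 0.296 and 0.337 against 17.6 and 16.8 TPM, log2 difference 3.79. CD38, an ectoenzyme that consumes NAD, was at 7.29 and 10.4 against 0.126 and 0.335 TPM, log2 difference -2.99 and KLHL14 at 8.93 and 9.18 against 0.443 and 0.264 TPM, log2 difference -2.90.

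By position, the median log2 difference of 25 neighbouring tested genes lay between -0.50 and 0.33 in all but the lowest and highest 2.5% of 12065 overlapping windows. The highest median, 0.83, was at chromosome 9 from 136994635 to 137441816 of hg38, where 9 genes were called higher and none lower and UAP1L1 and DPP7 had log2 differences of 2.36 and 2.10. The next, 0.73, was at chromosome 16 from 56429133 to 57665580 and holds the metallothioneins. Those genes share much of their sequence, and in MT1F (48.003 and 26.8 against 293 and 166 TPM) and MT2A (239.5 and 150.4 against 605 and 373 TPM) A1 was above B1 in both groups. The lowest median was -0.73, on chromosome 8 in the window that also holds CDH17, itself one of the rises. The second lowest, -0.71 on chromosome 3, holds CP and PLOD2, which fell, and TM4SF4, which rose. DNA copy number was not measured in these files, and its part in the windows was not tested. MT2A lost the call without control B1, at an adjusted p of 0.0991.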
